A study of Mus musculus with 66 samples.

Results

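Dbp, Tef, Hlf, Nfil3, Ciart, Bhlhe40 and Bhlhe41 are transcription factors and corepressors that carry the rhythm of the circadian clock to other genes. These 7 genes were taken by name from the 45706 Ensembl gene identifiers of the count tables, and their RNA was followed over all 66 libraries by tissue, strain and Rorb allele. All 7 passed the filter on low counts in all 28 comparisons. In the cell-autonomous clock, CLOCK and BMAL1 bind E-boxes and switch on the Per, Cry and Nr1d genes together with Dbp, Tef, Ciart and the Bhlhe40 and Bhlhe41 genes. DBP, TEF and HLF are the PAR bZIP activators, which bind D-boxes, and NFIL3 is a bZIP repressor of the same sites. Nfil3 is itself a classical gene of the other arm of the clock, in which the nuclear receptors of the ROR family activate and the REV-ERB receptors (NR1D1 and NR1D2) repress genes that hold a RORE, among them Bmal1. RORβ, the product of Rorb, is one of these ROR receptors.

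The libraries came from 30 mice. Of these, 24 gave a brain hemisection (a brain cut sagittally) and an extruded spinal cord: 3 C57BL/6J and 3 DBA/1J controls and mice homozygous for the Rorb alleles h1 (3 mice), h2 (4), h3 (4), h4 (4) and h5 (3), aged 7.9 to 9.6 weeks. The other 6 mice, 3 DBA/1J and 3 Rorb h5/h5 aged 7 weeks, gave cortex, hippocampus and cerebellum. The alleles are spontaneous and germ-line, so every cell of a mutant carries them: h1, on C57BL/6J, is a duplication that takes in the first exon of the Rorb1 transcript, h4 is a premature stop codon on B6.129S7-Il1r1 tm1/mx/J, h5 is a loss of the Rorb1 start codon on DBA/1J, and the causal changes of h2 and h3, both on B6(Cg)-Tyr c-2J/J, are not known. The 4 mutants h1 to h4 were compared with the same 3 C57BL/6J mice. The labels give no time of day of collection, which these genes follow in many tissues. The animal numbers of h2, h3 and h4 form series of their own that no C57BL/6J control shares, so the genotype, the substrain and the animal series cannot be told apart in those 3 groups. Replicates are separate animals, which within a group also differ in labelled sex and, in several groups, in age and in the date-like part of the animal number. The DBA/1J and h5 mice share some of their animal number series. What the numbers stand for is not given in the sources used here.

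Total estimated counts ran from 32889755 to 59120536 per library, and the 7 genes had between 167 (Ciart) and 18809 (Tef) counts per library. Rorb RNA was between 2.57 and 3.57 TPM (the level per transcript length, scaled to the same total in each library) in h4 brains, between 5.76 and 6.58 TPM in h2 brains and between 7.31 and 7.82 TPM in h1 brains, against 10.99 to 13.14 TPM in C57BL/6J brains, while h3 brains (11.14 to 11.75 TPM) lay inside the control range. In h5 mice, whose allele is a lost start codon, every library lay above the DBA/1J libraries of its tissue (15.4 to 18.24 against 10.59 to 13.75 TPM in brain, 31.92 to 34.15 against 16.32 to 23.02 TPM in cortex), and edgeR called Rorb in none of the 5 tissues (unadjusted p under 0.05 in each). The authors, using DESeq2, report Rorb as significantly changed in each of these tissues. The sex-linked genes Ddx3y and Xist went against the labelled sex in 3 libraries, the cortex, hippocampus and cerebellum of h5 mouse 3. One brain library also stood apart: the cerebellar markers Gabra6, Neurod1 and Pcp2 summed to 6.12 TPM in DBA/1J brain 1 and to between 167 and 411 TPM in the other 23 brains. In the spinal cords the Hox genes Hoxc8, Hoxa7 and Hoxc10 marked the tissue, with between 137 and 151 TPM in C57BL/6J cords and at most 0.37 TPM in C57BL/6J brains.

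Promoter windows of the mouse genome (GRCm38.p6, RefSeq) were matched for 6 of the 7 genes. Each window runs from 250 bases before a transcript start to 50 bases after it and was searched on both strands for the E-box CACGTG, the E-box variant CACGTT, the D-boxes TTATGTAA and TTACGTAA, the RORE half-site TAGGTCA and the cAMP response element TGACGTCA. CACGTG stood in 7.15% of all 32851 windows, CACGTT in 4.68%, either D-box in 1.06%, TAGGTCA in 2.61% and TGACGTCA in 1.79%. Ciart held 3 E-boxes, at -116, -58 and -44 from the start, Bhlhe41 held 1 at -153, and each of the 2 windows of Tef held 1, at -127 and -138. Nfil3 held the RORE half-site on the reverse strand at -12, and Hlf held the cAMP response element at -9. The Nfil3 window (chr13:52980990-52981289) lies inside the range of the gene (chr13:52967209-52982878, minus strand). It is thus not at the end of that range where the gene begins. The window of Dbp held none of these letters, and no D-box or CACGTT was found in the windows of any of the 6 genes. The sequences below are shown because they hold these matches, with the matched letters in capitals (in Nfil3 the reverse complement of the RORE half-site). The Ciart sequence lies at chr3:95882229-95882478 on the minus strand, Bhlhe41 at chr6:145865551-145865590 (minus), the first Tef window at chr15:81802529-81802568 (plus) and the second at chr15:81811259-81811298 (plus), Nfil3 at chr13:52981040-52981068 (minus) and Hlf at chr11:90390918-90390943 (minus).
Ciart: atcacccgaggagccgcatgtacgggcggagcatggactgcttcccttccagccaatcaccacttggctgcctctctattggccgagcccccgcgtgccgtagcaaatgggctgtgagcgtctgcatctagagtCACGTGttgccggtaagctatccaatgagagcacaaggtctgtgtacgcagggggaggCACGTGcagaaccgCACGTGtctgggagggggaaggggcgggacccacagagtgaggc
Bhlhe41: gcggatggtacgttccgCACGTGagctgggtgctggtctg
Tef (first): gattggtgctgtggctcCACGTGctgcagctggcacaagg
Tef (second): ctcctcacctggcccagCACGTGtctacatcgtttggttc
Nfil3: agcgcggcgctcggaacTGACCTActaac
Hlf: gcgcgcggtgcgggcccTGACGTCAc

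Tef was the most abundant of the 7 genes and Nfil3, Ciart and Bhlhe41 were the least abundant in C57BL/6J brain. Mean TPM in the 3 C57BL/6J brains stood in the order Tef 153.4 ± 11.1, Hlf 73.5 ± 11, Dbp 55.6 ± 5.70, Bhlhe40 51.2 ± 2.71, Bhlhe41 13.9 ± 1.44, Ciart 12.99 ± 0.446 and Nfil3 11.4 ± 0.741 (SD, n = 3). The neighbours Dbp and Bhlhe40, and Bhlhe41 and Ciart, differed by less than their spread. In C57BL/6J spinal cord the order was Tef 113.9 ± 5.42, Dbp 44.9 ± 4.19, Bhlhe40 38.9 ± 1.24, Hlf 28.0 ± 1.09, Bhlhe41 26.4 ± 2.50, Ciart 13.2 ± 2.97 and Nfil3 7.01 ± 0.811 TPM. Hlf thus stood behind Tef in brain and behind Tef, Dbp and Bhlhe40 in cord, where it and Bhlhe41 differed by less than their spread. The genes lie on 6 chromosomes: Dbp at chr7:45705100-45710203, Tef at chr15:81802673-81826863, Hlf at chr11:90336535-90390917, Nfil3 at chr13:52967209-52982878, Ciart at chr3:95878500-95882257, Bhlhe40 at chr6:108660629-108666925 and Bhlhe41 at chr6:145858243-145865420 (GRCm38.p6). Exons of 6 of them, all but Hlf, overlap a gene on the other strand, of which Sphk2 over Dbp had the highest mean level (12.7 TPM). The counting is not stated to use strand, and reads from such overlaps cannot be assigned to one gene with certainty.

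**Figure D1:**
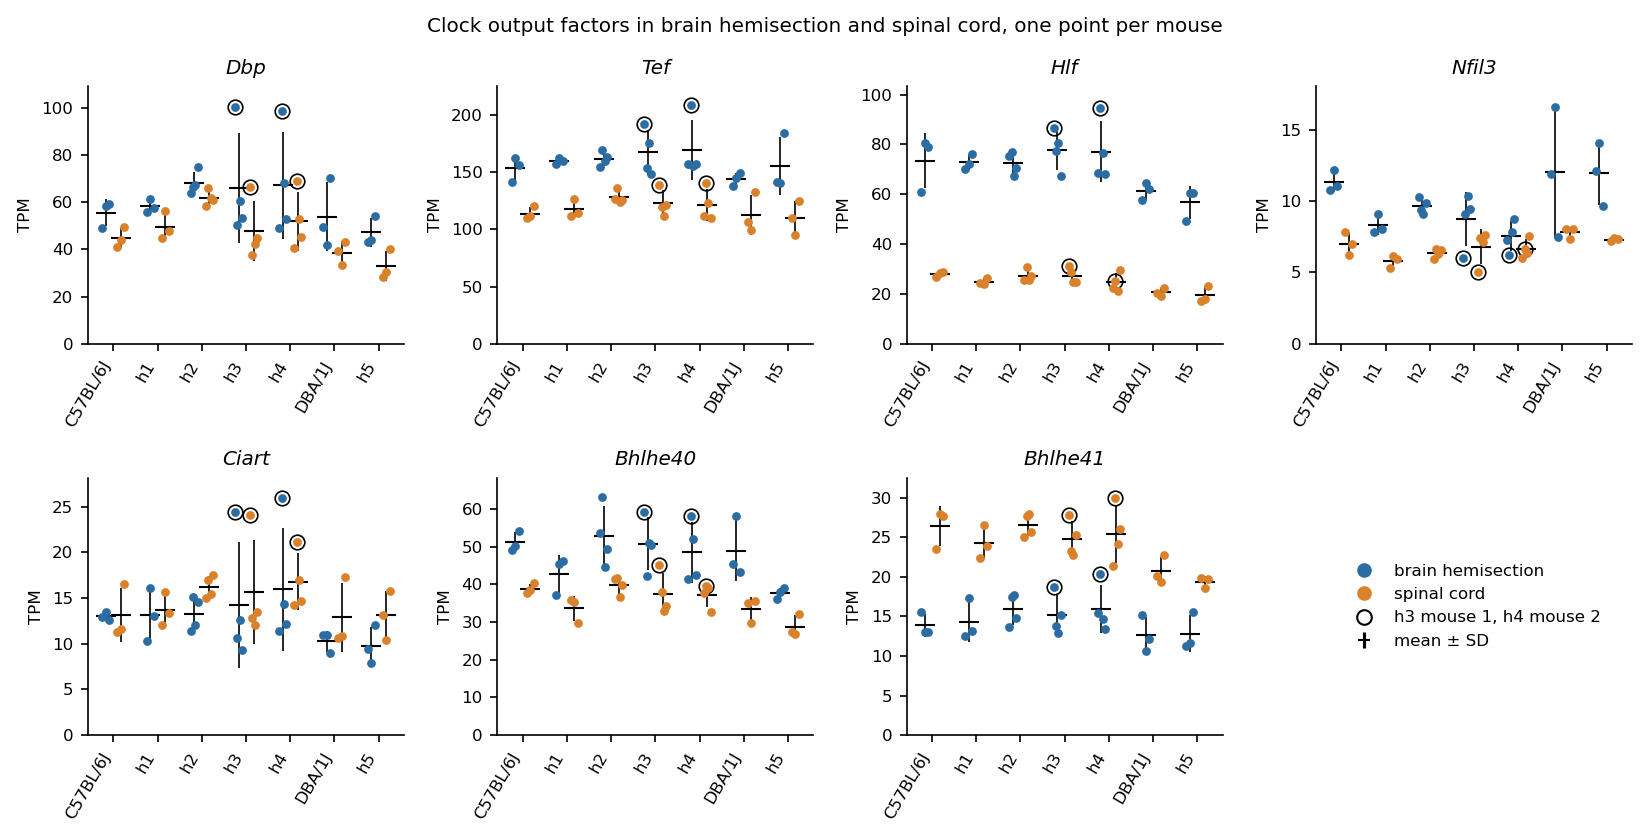
TPM of each gene (vertical axes, from 0) in brain hemisection (blue) and spinal cord (orange) of the 7 groups on the horizontal axes, 1 point per mouse, with the mean and SD of each group in black and h3 mouse 1 and h4 mouse 2 ringed. The ringed mice are the highest of their group for Dbp, Tef and Ciart in both tissues, and Nfil3 in all 15 brains of h1 to h4 lies below the 3 C57BL/6J brains.

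The first question of the design was whether loss or change of Rorb moved these genes. Of 91 tests (7 genes in 13 comparisons of a mutant with its strain-matched control), edgeR called 3 at an adjusted p under 0.05, all in spinal cord. There Dbp and Tef rose in Rorb h2/h2 mice and Hlf fell in Rorb h4/h4 mice. At an unadjusted p under 0.05 there were 23 of the 91, beside 9.31% of all gene tests in the 13 comparisons, and DESeq2 called 6 of the 91, beside 1.23%. Of all genes tested, edgeR at an adjusted p under 0.05 called 0% (h1), 0.136% (h2), 0.164% (h3), 0.703% (h4) and 0% (h5) in brain, 0.289% (h1), 2.09% (h2), 1.01% (h3), 1.75% (h4) and 0.00581% (h5) in spinal cord, and 0% in cortex, 0.0118% in hippocampus and 0.012% in cerebellum of h5 mice. As shares of the 91 tests, all 3 counts were larger than the shares of all genes. The tests are not independent, since several of the 7 genes vary together and h1 to h4 share their controls. The median log2 fold change of the 7 genes ran from -0.154 (h5 hippocampus) to 0.205 (h4 brain), against -0.00309 to 0.005 for the medians of all genes tested in the 13 comparisons.

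Dbp, the most strongly cycling of the PAR bZIP activators in many tissues, had 58.6, 66.18, 61.85 and 60.8 TPM in the 4 h2 spinal cords and 41.16, 44.06 and 49.42 TPM in the C57BL/6J cords. All 4 mutants lay above all 3 controls. The share of all genes whose groups separate like this was not counted for any single comparison here or below. The log2 fold change was 0.51 ± 0.0655 (SE, 4 mutants against 3 controls, adjusted p = 0.000468). It passed in each of the 7 fits without 1 mouse and was lost in 1 fit of all spinal cord groups (adjusted p = 0.203). In the same mice's brains Dbp was 64.0, 66.5, 67.34 and 74.95 TPM against 49.08, 58.62 and 59.24 TPM, again without overlap, but the difference (0.37 ± 0.082) did not pass the test by edgeR (adjusted p = 0.191) and passed by DESeq2 (adjusted p = 0.00857) and without h2 mouse 1 (adjusted p = 0.0364). The difference of the h2 effect on Dbp between cord and brain was 0.14 ± 0.115 (adjusted p = 0.953).

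In h1, h3 and h4 mice Dbp had log2 fold changes of 0.18 to 0.35 in brain and 0.16 to 0.25 in spinal cord against the same controls, none of which passed the test, although the h1 cord difference passed with no filter on low counts (adjusted p = 0.0271). Without h3 mouse 1 the h3 values were -0.0077 in brain and -0.083 in cord, and without h4 mouse 2 the h4 values were 0.15 and 0.071, so that single mice set the size, and in h3 the sign, of these differences. In Rorb h5/h5 mice the values were negative in each of the 5 tissues, between -0.25 in spinal cord and -0.018 in cerebellum, and none passed. In fits without 1 mouse the brain value ran from -0.28 to 0.073 and the cerebellum value from -0.11 to 0.082. Hippocampal Dbp of the h5 mice (77.6, 82.29 and 84.54 TPM) lay below that of the DBA/1J mice (90.57, 92.12 and 86.07 TPM), with an adjusted p of 0.997. The authors name slight differences in age at collection as a source of variation among the hippocampus samples of this comparison.

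Tef, the second PAR bZIP activator, had 126.84, 136.08, 124.31 and 125.38 TPM in h2 spinal cords and 109.94, 111.63 and 120.06 TPM in the control cords, which did not overlap. The change was small, 0.13 ± 0.0334 on the log2 scale, with an adjusted p of 0.0476. It passed in 2 of the 7 fits that left out 1 mouse, those without C57BL/6J mouse 3 or h2 mouse 1 (adjusted p 0.0252 to 0.221 over the 7), and was lost in 1 fit of all spinal cord groups (0.427). Elsewhere Tef had log2 fold changes from -0.018 to 0.20, none of which passed.

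Hlf, the third activator, had 72.87, 73.82 and 74.46 CPM (counts scaled by library size and TMM factor) in the C57BL/6J cords and 59.35, 65.09, 61.73 and 60.2 CPM in the h4 cords, so that all 4 mutants were lower. The log2 fold change was -0.26 ± 0.0404 (adjusted p = 0.00373), and it passed in each of the 7 fits without 1 mouse and under each of the 6 other settings tried. On the TPM scale the groups overlapped, 26.8 to 28.85 TPM in controls and 21.29 to 29.52 TPM in h4. The mean transcript length estimated for Hlf, by which TPM divides, was 4779 ± 692 bases in h4 cords (SD, n = 4) and 5021 ± 38 bases in control cords (n = 3). In h4 brains Hlf was 0.096 ± 0.0732 on the log2 scale against controls. The difference between the tissues (-0.35 ± 0.0875, cord minus brain) had an unadjusted p of 0.000745 and an adjusted p of 0.208 by edgeR, and an adjusted p of 0.0373 by DESeq2.

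Nfil3, the repressor that competes with the PAR bZIP factors, was lower in the brains of all 15 h1 to h4 mice than in the C57BL/6J brains, without passing edgeR's test in any single comparison, while DESeq2 called it in h4 (adjusted p = 0.00958). The controls had 10.82, 12.21 and 11.07 TPM. The h1 brains had 7.83, 9.08 and 8.04 TPM, the h2 brains 10.27, 9.39, 9.14 and 9.87 TPM, the h3 brains 5.99, 9.12, 10.39 and 9.45 TPM and the h4 brains 7.31, 6.23, 7.86 and 8.74 TPM. Groups separated in this way, with every mutant below every control, in 0.973% of the 14795 genes with a mean of at least 1 CPM, and Nfil3 was the only one of the 7 genes among them. The log2 fold changes were -0.42 ± 0.0886 in h1 (adjusted p = 0.643), -0.21 ± 0.0768 in h2 (0.56), -0.36 ± 0.145 in h3 (0.422) and -0.54 ± 0.129 in h4 (0.0918). All 4 rest on the same 3 control brains.

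The labels pair no h4 mouse with a C57BL/6J mouse, but same-numbered mice of these groups deviated together (every r above 0.1). Their numbers also follow the same order of labelled sex. With the number as a block, which rests on these data and not on the labels, the h4 value became -0.65 with an adjusted p of 0.0166. The difference in h4 passed under 4 of the 6 settings other than leaving out a mouse (the block, DESeq2, no filter on low counts and sex as a covariate), over which the adjusted p ran from 0.00958 (DESeq2) to 0.228 (1 fit of all brains), and it was between 0.0607 and 0.241 in the 7 fits without 1 mouse. Spinal cord Nfil3 of the same mutants had log2 fold changes between -0.20 and -0.032, and the h4 effect differed between cord and brain by 0.49 ± 0.18 (adjusted p = 0.413). The test of any difference among the 5 groups gave Nfil3 an adjusted p of 0.33 in brain.

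Genes that respond to neuronal activity were read beside Nfil3, since Arc, the immediate early gene of synapses, was the gene most like it within groups. The median log2 fold change of the 7 immediate early genes Fos, Fosb, Egr1, Arc, Junb, Npas4 and Nr4a1 in brain was -0.793 in h1, 0.0627 in h2, -0.325 in h3 and -0.301 in h4, with 0 of 7 called in each. Nfil3 was also higher in cerebellum (17.8 TPM) than in cortex (8.52 TPM) of the DBA/1J mice, and the summed cerebellar markers ran from 277 to 411 TPM in C57BL/6J brains, from 274 to 362 TPM in h1, from 296 to 314 TPM in h2, from 234 to 332 TPM in h3 and from 167 to 320 TPM in h4 brains. Summed astrocyte markers were lower in h2 (265.8 to 281.5 TPM) and h3 (235.4 to 278 TPM) brains than in C57BL/6J brains (286.6 to 308.2 TPM), with no overlap, and overlapped in h1 (253.7 to 305.6 TPM) and h4 (240.2 to 294.4 TPM). Summed blood markers likewise lay at 444.6 to 574.2 TPM in h2 and 473.6 to 573.6 TPM in h3, below the 635.3 to 787.5 TPM of C57BL/6J brains, and overlapped in h1 (463.8 to 955.1 TPM) and h4 (349.8 to 691.8 TPM). The part of the activity-responsive genes, the cerebellar share and the astrocyte and blood markers in the Nfil3 values was not tested. Of the 7 glucocorticoid-responsive genes, Cdkn1a, which encodes the cell cycle inhibitor p21, fell in h2 (-0.69), h3 (-0.61) and h4 (-0.89) brains, and Tsc22d3, an early glucocorticoid target, fell in h4 brain (-0.48), on the log2 scale.

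Ciart, a corepressor of CLOCK and BMAL1, and the E-box repressors Bhlhe40 and Bhlhe41 had 0 calls in the 39 mutant tests by edgeR. At an unadjusted p under 0.05 there were 7, beside 9.31% of all gene tests in the 13 comparisons, and DESeq2 called 1, beside 1.23%. The lowest adjusted p among them was that of Ciart in h2 cord (log2 fold change 0.25 ± 0.107, adjusted p = 0.254), and the DESeq2 call was Bhlhe40 in h5 brain. In h1 brain Bhlhe40 also lay below its controls (37.08 to 46.1 against 49.22 to 54.31 TPM). The log2 fold change there was -0.23 ± 0.0679 (edgeR, unadjusted p = 0.00596, adjusted p = 0.998), and in h1 cord it was -0.12 ± 0.0549 (adjusted p = 0.422). In brain and cord of h2, h3 and h4 it lay between -0.0239 and 0.0497. Bhlhe40 had 36.16, 38.01 and 38.93 TPM in h5 brains against 45.29, 58.16 and 43.34 TPM in DBA/1J brains, with no overlap (the share of all genes separated in this way was not counted). The log2 fold change was -0.42 ± 0.0881 (edgeR adjusted p = 0.359, DESeq2 adjusted p = 0.00624). Without DBA/1J brain 1, the library with few cerebellar transcripts, it was -0.47 (adjusted p = 0.275). The summed cerebellar markers of the h5 brains (331.65 to 374.43 TPM) also lay above those of the other 2 DBA/1J brains (291.76 and 296.14 TPM), as did the summed cortex markers, which include Rorb (97.73 to 123.5 TPM against 90.48 to 97.24 TPM in the 3 DBA/1J brains). The median log2 fold change of the 7 immediate early genes in h5 brain was -0.422, with 0 called. The part of these in the Bhlhe40 values was not tested. In h5 cortex, from other mice, Bhlhe40 was 68.89, 60 and 91.83 TPM against 89.59, 115.7 and 97.37 TPM, overlapping, with a log2 fold change of -0.50 ± 0.158 (adjusted p = 0.753). Without h5 mouse 3, whose libraries go against their labelled sex, it was -0.72 (adjusted p = 0.352), and with the animal number series as a block it was -0.44 (0.0713). In h5 spinal cord the Bhlhe40 value was -0.18 ± 0.0651 (edgeR, unadjusted p = 0.0194, adjusted p = 0.522), and in h5 hippocampus and cerebellum it was -0.097 and 0.0078. The test of a difference of the h5 effect among cortex, hippocampus and cerebellum gave Bhlhe40 an unadjusted p of 0.0153, which did not pass the adjustment. It called 0 of the 7 genes by edgeR (1 at an unadjusted p under 0.05) and 0 by DESeq2, beside 0.00544% of all genes by edgeR, 4.32% at an unadjusted p under 0.05 and 0.212% by DESeq2.

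**Figure D2:**
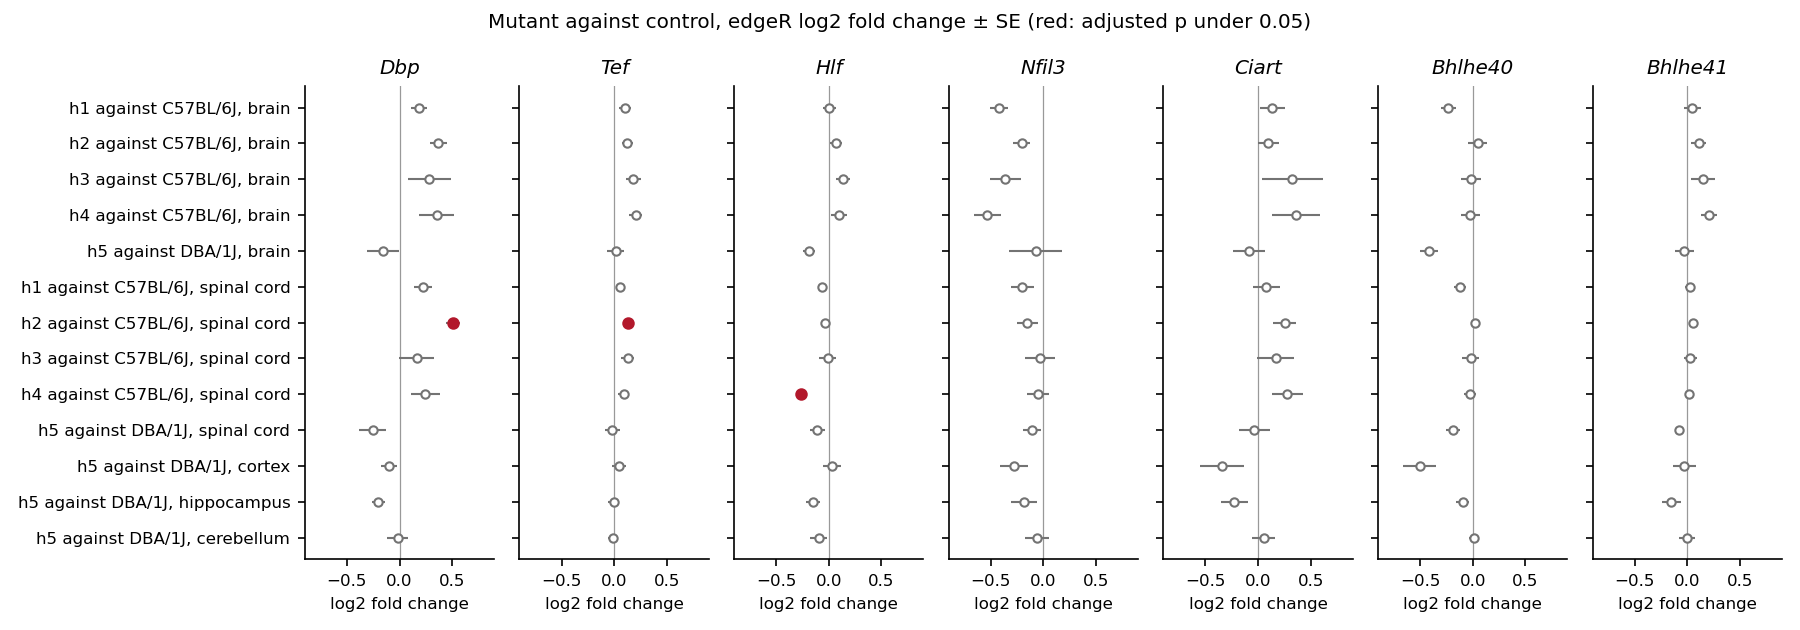
Log2 fold change of each gene (horizontal axes) in the 13 comparisons of a mutant with its strain-matched control (rows), from edgeR, with bars of 1 SE and red points for an adjusted p under 0.05. The 3 red points are Dbp (0.51) and Tef (0.13) in h2 spinal cord and Hlf (-0.26) in h4 spinal cord, and the 4 Nfil3 values of h1 to h4 brain all lie left of 0.

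The genes around the 7 factors in the clock were read from lists of known role. Of the 8 genes with E-box or D-box phase (Per1, Per2, Per3, Nr1d1, Nr1d2, Cry2, Usp2 and Wee1), edgeR called 0 in each of the 13 mutant comparisons, and their median log2 fold change lay between -0.155 and 0.0944. The test of any difference among C57BL/6J and h1 to h4 called 1 of the 8 in spinal cord, Cry2, a repressor of CLOCK and BMAL1 (adjusted p = 0.00638), and 0 in brain. Of the 4 genes of RORE phase (Bmal1, Clock, Npas2 and Cry1), only Npas2, which can stand in for CLOCK, was called: it fell in h2 (-0.60 ± 0.0786) and h4 (-0.77 ± 0.091) spinal cord. Of 4 targets of the PAR bZIP factors (Pdxk, Por, Alas1 and Aldh1a1), only the retinaldehyde dehydrogenase gene Aldh1a1 was called, and it fell in h2 (-0.36) and h3 (-0.29) spinal cord. Of the 7 glucocorticoid-responsive genes, Cdkn1a and Tsc22d3 fell in h2, h3 and h4 cord, and Sgk1, a kinase gene, fell in h2 (-0.81) and h4 (-0.93) cord. Of the 7 immediate early genes, Arc fell in h2 cord (-0.24, adjusted p = 0.0244), Fos (-0.52) and Arc (-0.30) fell in h1 cord, and none was called in h3 or h4 cord. The summed cortex markers (Rorb, Cux2 and Tbr1) were between 24.21 and 24.98 TPM in h4 cords and between 27.42 and 30.82 TPM in C57BL/6J cords, a sum that holds the mutated gene itself (Rorb between 1.8 and 2.38 TPM and between 7.92 and 8.43 TPM). The part of these genes in the Dbp, Tef and Hlf values of those cords was not tested.

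In the test of any difference among C57BL/6J, h1, h2, h3 and h4, edgeR called 0 of the 7 genes in brain, where it called 0.715% of all genes, and Hlf alone in spinal cord (adjusted p = 0.0429), where it called 4.53%. At an unadjusted p under 0.05 there were 2 of 14 (beside 13.6% of all genes over both tissues) and DESeq2 called 1 (beside 5.17%). With the replicate number as a block the adjusted p of Hlf was 0.0834, and Hlf passed in 5 of 18 fits without 1 mouse. Without h3 mouse 1 and h4 mouse 2, a setting chosen after seeing the data, Hlf (adjusted p = 0.000321) and Dbp (adjusted p = 0.00172) passed in spinal cord and no member passed in brain. None of the 35 differences of a mutant effect between spinal cord and brain was called (edgeR; 2 at an unadjusted p under 0.05; DESeq2 called 1), beside 0% of all genes for h1, h2, h3 and h5 and 0.0054% for h4 by edgeR, and 5.48% at an unadjusted p under 0.05 and 0.113% by DESeq2 over the 5 mutants.

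Ciart, Dbp and Nfil3 varied most between mice of one group. The standard deviation of log2 CPM within groups, over the 66 libraries, was 0.307 for Ciart, 0.252 for Dbp, 0.218 for Nfil3, 0.151 for Bhlhe40, 0.118 for Bhlhe41, 0.103 for Hlf and 0.0896 for Tef. The median of 14795 genes was 0.111, and Ciart, Dbp and Nfil3 stood at percentiles 89.7, 84.3 and 80.1 of them, while Tef stood at 34.7.

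For Dbp, Hlf and Ciart, h3 mouse 1 and h4 mouse 2 were the mice farthest from the median brain. Dbp was 100.53 TPM in h3 brain 1 against 50.22 to 60.64 TPM in the other 3 h3 brains (1.84 times their mean), and 66.64 TPM in the cord of the same mouse against 37.47 to 44.87 TPM (1.60 times). In h4 mouse 2 Dbp was 98.95 TPM in brain (1.75 times the mean of the other 3) and 69.19 TPM in cord (1.49 times). Ciart was 24.43 and 25.9 TPM in these brains, 2.26 and 2.05 times the mean of the others.

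The remaining genes moved with them. Tef, Bhlhe40 and Bhlhe41 were above the other 3 mice of the group in both tissues of both mice, and so was Hlf except in the cord of h4 mouse 2. Nfil3 was below the others in 3 of these 4 libraries, 5.99 TPM in brain and 5.0 TPM in cord of h3 mouse 1 and 6.23 TPM in brain of h4 mouse 2, and within the others' range in the cord of h4 mouse 2. The same 4 libraries had Per1, Per2, Per3, Nr1d1, Nr1d2 and Cry2 above and Bmal1 below the others of their group. Of the same lists, Usp2 was above in 3 and within in 1, and Wee1 was above in 1 and within in 3. Clock, Npas2 and Cry1, which share the RORE list with Bmal1, were below in at most 1 library each. Cry1 was above in both libraries of h4 mouse 2, and Clock was above in the cord of h3 mouse 1 (31.54 TPM against 27.35 to 31.36 TPM). Bmal1 was 18.43 TPM against 20.18 to 25.11 TPM in brain and 6.84 TPM against 10.56 to 11.34 TPM in cord of h3 mouse 1. Apart from Hlf in 1 cord, the PAR bZIP activators and the E-box repressors were thus high together in the libraries with low Bmal1 and, in 3 of 4, low Nfil3.

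Other measures also differed in these libraries. Of the 7 glucocorticoid-responsive genes, 6 were above the group's others in the brain of h4 mouse 2 (all but Cdkn1a), while 2 were above and 2 below in the brain of h3 mouse 1, 3 above and 2 below in its cord, and 1 above and 1 below in the cord of h4 mouse 2. Of the 7 immediate early genes, 6 were above the others in the brain of h4 mouse 2 (all but Fosb) and 3 in its cord (Arc, Junb and Npas4), while in h3 mouse 1 none was above, Npas4 was below in both tissues and Arc was below in cord. Summed microglial markers (Cx3cr1, P2ry12 and Csf1r) were above the others in 3 of the 4 and below them in the cord of h3 mouse 1, summed forebrain neuron and meningeal markers were each above in 3 of the 4 and within in the cord of h3 mouse 1, and summed endothelial markers were below in 3 of the 4 and within in the brain of h4 mouse 2. In the brain of h3 mouse 1 the summed astrocyte, cerebellar, hippocampal and choroid plexus markers were below the others (choroid plexus 383.8 TPM against 664.2 to 741.1 TPM), and in the brain of h4 mouse 2 the choroid plexus markers were above them (697.3 TPM against 549 to 581.3 TPM). Summed blood markers were above the others in both brains, below them in the cord of h3 mouse 1 (364.9 TPM against 448.8 to 596.2 TPM) and within in the cord of h4 mouse 2. Summed pineal and pituitary markers were below the others in both brains (1.93 TPM against 2.71 to 3.75 TPM in h3, 1.81 TPM against 2.15 to 4.28 TPM in h4), above them in the cord of h4 mouse 2 and within in the cord of h3 mouse 1. Neither mouse shares the date-like part of its animal number with another mouse of its group, which also holds for h3 mouse 2 and h4 mouse 1. Mouse 1 of h3 was 9.6 weeks old against 8.0 to 8.3 weeks for the other 3, while h4 mouse 2 was 8.6 weeks old, within its group. The part of these in the clock values was not tested.

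The brain and spinal cord of 1 mouse were compared over all 24 mice, as deviations from the group mean in log2 CPM. Dbp deviated the same way in both tissues in 22 of 24 mice, and its brain and cord deviations had a Pearson r of 0.921 (permutation of mice within groups, two-sided, p = 1e-05, the smallest that 100000 permutations can give) and a Spearman rho of 0.83 (permutation p = 3e-05). Without the pair of mice farthest from the median in brain, h3 mouse 1 and h4 mouse 2, r was 0.781 (permutation p = 0.00028). Ciart (r = 0.822, p = 0.00157, rho = 0.73, p = 0.00265) and Tef (r = 0.814, p = 0.00042, rho = 0.695, p = 0.00189) kept their direction and their side of 0.05 without their farthest pair, with r of 0.496 (p = 0.0393) and 0.71 (p = 0.00836), all by permutation within groups.

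Hlf (r = 0.611, permutation p = 0.0033, rho = 0.531, p = 0.0101) and Nfil3 (r = 0.502, permutation p = 0.0221, rho = 0.497, p = 0.0179) rested on the farthest pair: without it r was 0.412 (p = 0.0782) and 0.255 (p = 0.356). Bhlhe41 (r = 0.556, permutation p = 0.0862, rho = 0.291, p = 0.291) and Bhlhe40 (r = 0.258, permutation p = 0.345, rho = 0.142, p = 0.566) did not pass. These 7 relations were computed with no adjustment of p over them, since the genes were chosen with earlier results known. Over the 14795 genes the median r between brain and cord was 0.0654, and Dbp, Ciart and Tef stood at percentiles 99.81, 99.57 and 99.53. Among the core clock genes r was 0.864 for Per2, 0.861 for Per3, 0.826 for Nr1d2 and 0.744 for Bmal1, and -0.0214 for Clock and 0.00243 for Npas2.

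**Figure D3:**
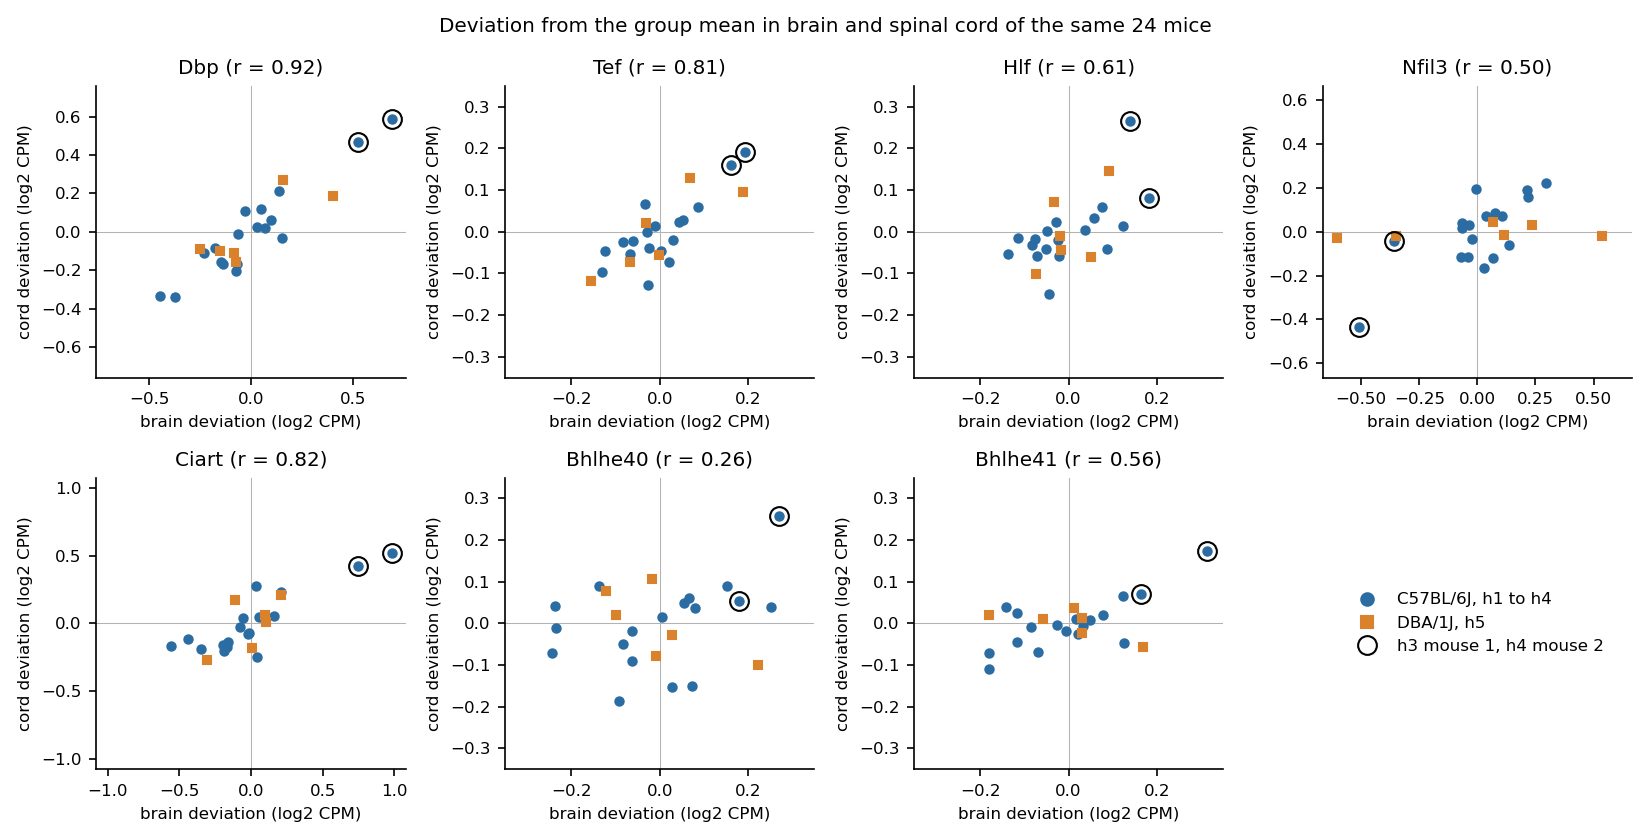
Deviation of each mouse from the mean of its group in brain (horizontal axes) and spinal cord (vertical axes), in log2 CPM, for the 7 genes, with blue circles for C57BL/6J and h1 to h4, orange squares for DBA/1J and h5, and rings around h3 mouse 1 and h4 mouse 2. The 24 points of Dbp (r = 0.92) lie along a line through 0, and those of Bhlhe40 (r = 0.26) do not.

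Over the 66 libraries, deviations from group means split the 7 genes into Nfil3 and the other 6. This is a description, because the libraries come from 30 mice and share tissues and animals. Dbp had a Pearson r of 0.79 with Tef and 0.79 with Ciart, and Tef had 0.754 with Ciart. Nfil3 had a negative r with each of the other 6, from -0.56 with Dbp to -0.087 with Bhlhe40, and a positive one (0.52) with Bmal1. Of all 14795 genes, those most like Dbp were Nr1d1 (0.815), Tef (0.792) and Ciart (0.79), and those least like it were Bmal1 (-0.745), Sash1 (-0.632) and Eml1 (-0.609). Tef was most like Per3 (0.811), Dbp and Nr1d2 (0.784), and Ciart was most like Dbp, Tef and Per3 (0.743).

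The genes most like Hlf were Nr1d2 (0.755), the Krüppel-like factor gene Klf9 (0.689) and Serinc3 (0.66). Bhlhe41 was most like Nr1d2 (0.663), Rlim (0.593) and Rgs2 (0.574), and Bhlhe40 was most like Klf10 (0.654), Frmd6 (0.646) and Hlf (0.637). Nfil3 was most like Arc (0.615), Kmt5c (0.61) and Zfp169 (0.601), none of them a core clock gene. Its r with the core clock gene Nr1d2 was negative and of similar size (-0.619). Clock, Npas2 and Cry1, which share the RORE list with Bmal1, had r with Dbp of -0.26, -0.33 and -0.025.

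**Figure D4:**
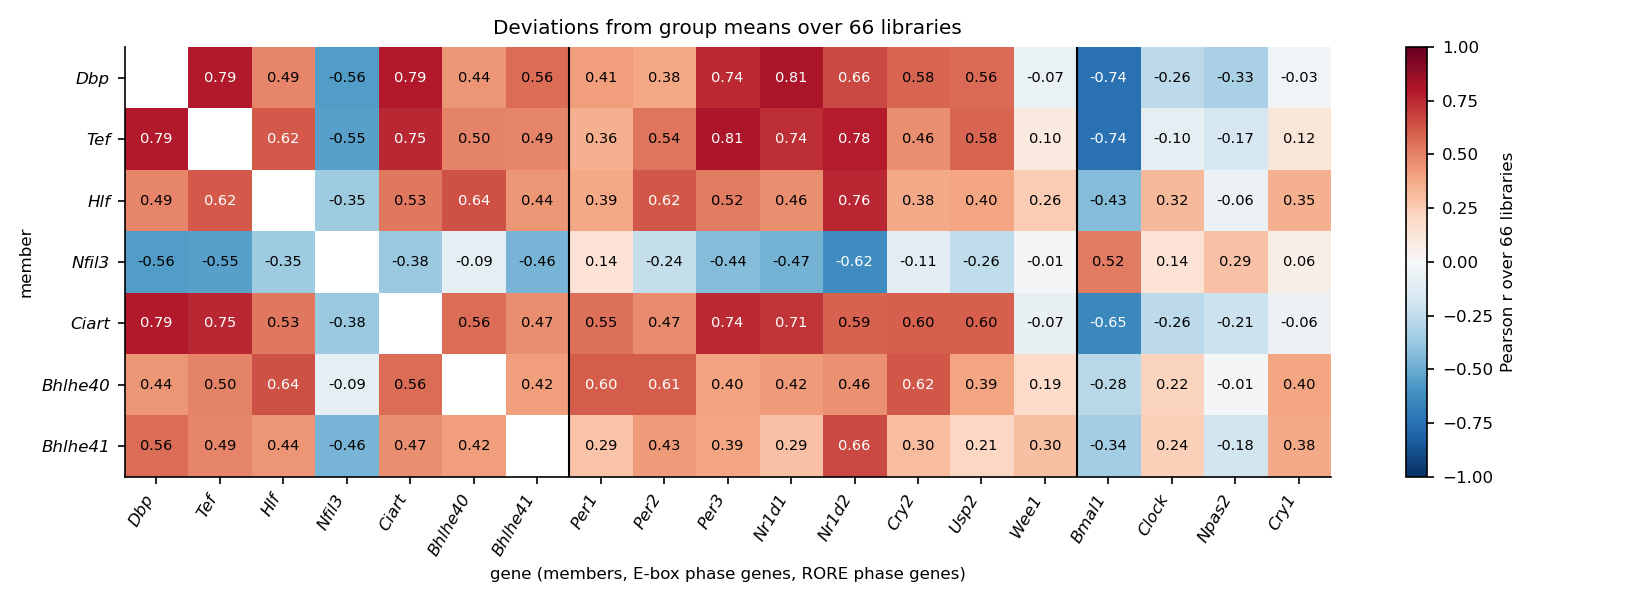
Pearson r of the deviations from group means in log2 CPM over 66 libraries, for each of the 7 genes (rows) with the other 6, with 8 genes of E-box or D-box phase and with 4 genes of RORE phase (columns, split by black lines), from blue (-1) to red (1). The Nfil3 row has the opposite sign to the Dbp row for Tef, Hlf, Ciart, Bhlhe41, Nr1d1 and Bmal1.

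Tissue differences were called for most of the genes, in 28 of 35 tests over 5 comparisons in control mice (28 at an unadjusted p under 0.05, beside 56% of all genes, and 29 by DESeq2, beside 49.8%). In both strains 6 of the 7 genes, all but Ciart, differed between spinal cord and brain (edgeR; 56.9% of all genes called in C57BL/6J and 50.8% in DBA/1J). Hlf was lower in cord, by 1.37 (SE 0.0544) on the log2 scale in C57BL/6J and 1.54 (SE 0.0485) in DBA/1J: 26.8, 28.46 and 28.85 TPM in C57BL/6J cords against 60.82, 80.59 and 79.09 TPM in brains. Nfil3 (-0.67 and -0.66), Tef (-0.42 and -0.51), Bhlhe40 (-0.38 and -0.62) and Dbp (-0.27 and -0.51) were also lower in cord, on the log2 scale. Bhlhe41 alone was higher in cord, by 0.86 ± 0.067 in C57BL/6J and 0.58 ± 0.0535 in DBA/1J. Its values were 23.48, 27.92 and 27.7 TPM in C57BL/6J cords and 15.53, 13.08 and 12.99 TPM in brains.

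Ciart had 11.26, 11.64 and 16.58 TPM in C57BL/6J cords and 12.95, 13.45 and 12.56 TPM in brains, overlapping (log2 difference 0.062 ± 0.128, adjusted p = 0.708). The Dbp call was lost without C57BL/6J mouse 1 (adjusted p = 0.0513) or 2 (0.076) and, in DBA/1J, without mouse 1 (0.0512), and the DBA/1J Nfil3 call was lost without mouse 1 (0.107) or 2 (0.24). In bulk tissue, fewer cells of a type and less RNA per cell cannot be told apart. Summed forebrain neuron markers were between 364.2 and 513.5 TPM in C57BL/6J brains and between 5.29 and 7.62 TPM in cords, summed astrocyte markers between 286.6 and 308.2 TPM and between 608.3 and 635.7 TPM, and summed choroid plexus markers between 587.7 and 933.8 TPM and between 2.19 and 4.53 TPM. Their part in these differences was not tested.

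Among the dissected regions of the 3 DBA/1J mice, cortex had the highest Hlf, Ciart and Bhlhe40, and cerebellum the highest Nfil3. Ciart was 62.69, 61.86 and 38.04 TPM in cortex, 23.98, 25.16 and 19.6 TPM in hippocampus and 38.94, 34.98 and 31.64 TPM in cerebellum. Bhlhe40 was 89.59, 115.7 and 97.37 TPM in cortex and between 45.3 and 57.69 TPM in the other regions. Nfil3 was 17.53, 20.06 and 15.8 TPM in cerebellum and between 8.02 and 9.5 TPM in cortex and hippocampus. Each of these separated the region named from the other regions except that cortical and cerebellar Ciart overlapped.

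Hippocampus was below cortex in 6 of 7 genes, all but Nfil3 (23.4% of all genes called by edgeR), from Ciart (-1.30 ± 0.199) and Bhlhe40 (-0.95 ± 0.0768) through Hlf (-0.66) and Dbp (-0.65) to Bhlhe41 (-0.40) and Tef (-0.35), as log2 differences. Cerebellum differed from cortex in 4 of 7 (60.3% of all genes): Bhlhe40 (-1.27), Ciart (-0.90) and Hlf (-0.87) were lower and Nfil3 (0.85 ± 0.114) was higher. Hippocampus differed from cerebellum in 6 of 7 (59.3% of all genes), with Hlf (0.20) and Bhlhe40 (0.33) higher and Dbp (-0.60), Tef (-0.24), Nfil3 (-0.86) and Bhlhe41 (-0.51) lower. With the animal as a block Ciart was also called lower in hippocampus than in cerebellum (-0.41, adjusted p = 0.0154, against 0.107 without the block). Against cortex the Bhlhe41 call was lost without mouse 2 (adjusted p = 0.115) or 3 (0.0824) and the Tef call without mouse 2 (0.0549). Against cerebellum the Hlf call was lost with no filter on low counts (0.0548) and without mouse 1 (0.0791) or 2 (0.264) and the Tef call without mouse 2 (0.0605), and Ciart passed without mouse 3 (0.0369). Summed choroid plexus markers ran from 16.83 to 863.4 TPM in cortex, from 1469 to 6127 TPM in hippocampus and from 2508 to 3647 TPM in cerebellum of these mice, and summed meningeal markers from 20.07 to 26.74, from 56.44 to 92.57 and from 48.73 to 53.38 TPM. Summed microglial markers ran from 126 to 144.4 TPM in cortex, from 100.2 to 113.8 TPM in hippocampus and from 31.36 to 34.64 TPM in cerebellum, and summed astrocyte markers from 211.1 to 253.9, from 263.1 to 280.6 and from 427.3 to 447.6 TPM, with no overlap between regions. Summed forebrain neuron markers were lower in cerebellum (376.7 to 426.2 TPM) than in cortex (712.4 to 853.1 TPM) and hippocampus (823.2 to 910.9 TPM), which overlapped. Their part in the differences between regions was not tested.

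The direction for Tef in cerebellum against cortex differed by scale. Its mean was 298 ± 16.1 TPM in cerebellum and 251.2 ± 7.40 TPM in cortex (SD, n = 3), but 385.6 ± 6.06 CPM and 411.7 ± 4.52 CPM, and the log2 difference of the counts was -0.10 ± 0.0571 (adjusted p = 0.137 by edgeR, 0.00834 by DESeq2). The mean transcript length given to Tef was 2997 ± 53.7 bases in cerebellum and 3265 ± 129 bases in cortex.

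Levels in the dissected regions lay apart from those in the hemisections for Ciart, Dbp and Tef and overlapped with them for Hlf, Nfil3, Bhlhe40 and Bhlhe41. Ciart was between 17.71 and 62.69 TPM in the 18 region libraries and between 7.86 and 11.99 TPM in the 6 hemisections of the same strain, and Dbp was between 77.6 and 175.99 TPM against 41.95 to 70.28 TPM. Tef was between 197.57 and 323.72 TPM against 138.04 to 184.46 TPM, while Hlf was between 53.67 and 111.16 TPM against 49.15 to 64.62 TPM. The 2 sets come from different mice of different ages, so the dissection, the mice and their collection cannot be told apart.

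**Figure D5:**
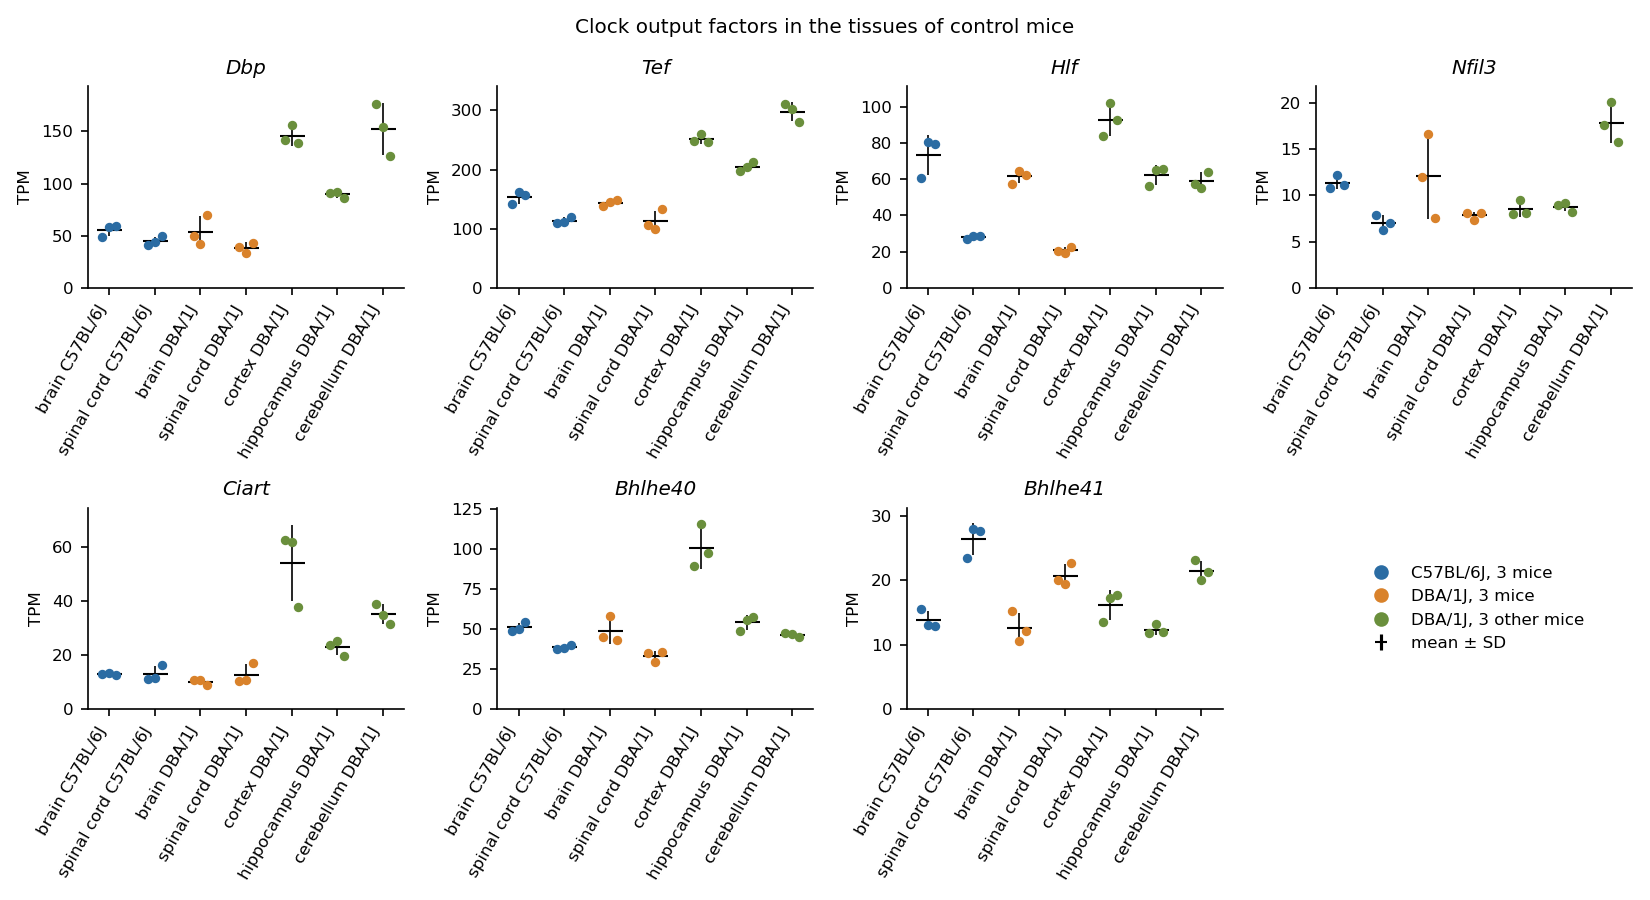
TPM of each gene (vertical axes, from 0) in the tissues of control mice, 3 points per tissue with mean and SD, for C57BL/6J (blue), DBA/1J (orange) and the other DBA/1J mice from which regions were dissected (green). Hlf is low and Bhlhe41 high in spinal cord of both strains, and Ciart and Dbp are higher in the 3 regions than in the hemisections.

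Between the control strains, Hlf, Bhlhe40 and Bhlhe41 were lower in DBA/1J than in C57BL/6J spinal cord (3 of 7 called by edgeR, beside 21.3% of all genes), and 0 of 7 passed in brain (beside 11.2%). The C57BL/6J mice (8.0 weeks) and DBA/1J mice (8.4 to 8.9 weeks) share no animal number series. Strain, age and series thus cannot be told apart. In both tissues together 5 of 14 had an unadjusted p under 0.05 (beside 28.9% of all genes) and DESeq2 called 5 (beside 17.1%). Bhlhe41 was 20.06, 19.38 and 22.74 TPM in DBA/1J cords, below the C57BL/6J cords (log2 difference -0.38 ± 0.0452, adjusted p = 4.56e-05). Hlf (20.22, 19.17 and 22.5 TPM, -0.37 ± 0.0453) and Bhlhe40 (35.01, 29.73 and 35.62 TPM, -0.27 ± 0.0528) did not overlap with C57BL/6J cords either. The 3 calls held in each fit without 1 mouse, while Dbp (-0.26 ± 0.0916, adjusted p = 0.0619) passed without DBA/1J mouse 3 (0.00605) or C57BL/6J mouse 1 (0.0272), and Tef passed without DBA/1J mouse 3 (0.0288). In the same comparison of cords 5 of the 7 immediate early genes were called, all higher in DBA/1J (median log2 difference of the 7, 0.598), and 4 of the 7 glucocorticoid-responsive genes, 3 higher and 1 lower. The summed cortex markers were between 32.39 and 36.83 TPM in DBA/1J cords and between 27.42 and 30.82 TPM in C57BL/6J cords. The part of these in the strain differences was not tested. In brain the lowest adjusted p was that of Hlf (-0.19 ± 0.0609, adjusted p = 0.0831), and without DBA/1J brain 1 it was 0.134. It passed under 2 of 5 other settings, DESeq2 (0.0473) and labelled sex as a covariate (0.0415), and in 0 of the 6 fits without 1 mouse (0.0827 to 0.239).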

How the data were processed

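Polyadenylated RNA of 66 libraries was sequenced in paired ends by the authors, who trimmed the reads (Trim Galore), checked them (FastQC), aligned them to GRCm38 (STAR) and estimated expression per Ensembl gene (RSEM). The deposited values used here are expected counts, 5.07% of which are not whole, and TPM, both per the file headers. Expected counts were rounded. Symbols came from GENCODE names for 41407 of 45706 identifiers, and coordinates and promoters from RefSeq on GRCm38.p6.

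Each comparison was fitted with edgeR 4.0.16 (R 4.3.3; TMM scaling, filterByExpr, quasi-likelihood test) over the libraries of its groups, with Benjamini-Hochberg adjustment over all genes tested and a threshold of 0.05. DESeq2 1.42.0, other scaling, no filter, sex, the replicate number, the animal number series (h5 comparisons), 1 fit for all groups of a tissue and leaving out each mouse were the alternatives. The test was checked on simulated counts. TPM was used for levels and log2 CPM (prior count 2) for deviations. Nfil3 and Ciart have the fewest counts, and no interval is given beyond the SD or SE.

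Genes named were the 7 members, fixed lists of clock, glucocorticoid-responsive and activity-responsive genes, cell type markers, Rorb, and for each member the 3 genes with the highest correlation (for Dbp also the 3 lowest); others were named after seeing their values (Sphk2, Ddx3y and Xist). The members and lists were chosen with earlier results of these data known. Same-numbered mice deviated together (every r above 0.1) in h1 and in h4 against C57BL/6J, in both tissues (0.129 to 0.554), but not in the other comparisons; in tissue comparisons the number is the animal. One list of clock genes and 1 of the 13 cell type marker lists are not reported here, and marker lists are given where they bear on a result.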

Additional observations from a re-analysis of the deposited data

Results flagged for a closer look

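Of 42 groups of 4 mice tested (7 genes in 6 groups), 2 held a mouse far from the other 3 by Dixon's test at the 95% level, about what chance gives at 1 in 20. Tef in h4 brain was 209.11 TPM in mouse 2 and 155.4 to 157.3 TPM in the others, a gap of 0.965 of the whole range. Ciart in h3 spinal cord was 24.08 TPM in mouse 1 and 12.06 to 13.51 TPM in the others, a gap of 0.879 of the range. Both are the mice in which Dbp, Tef and Ciart were highest in both tissues. Groups of 3 were not tested.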

How the results depend on the processing

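The 3 calls of mutant effects became 6 with DESeq2, 6 with no filter on low counts and 1 with 1 fit of all groups of a tissue (Hlf in h4 cord, the cause was not tested). Among the 5 groups on C57BL/6J the single call became 2 with no filter, 0 with the replicate block, 2 without the 2 mice that stand apart and between 0 and 2 when 1 mouse was left out. Of all genes, no filter called 0.81% in brain and 4.38% in cord and the block 0.411% and 3.72%, beside 0.715% and 4.53% in the main fits. The 3 strain calls became 5 with DESeq2 and were between 3 and 5 when 1 mouse was left out. The 0 differences of a mutant effect between tissues became 1 (Hlf in h4) with DESeq2 and 1 with no filter, a setting that called 0% (h5) to 0.364% (h4) of all genes. The replicate block also called Nfil3 in h4 brain and lost Tef in h2 cord (adjusted p = 0.108). It called Dbp between strains in cord (0.0386), where same-numbered mice did not deviate together. The labels pair no mice in these comparisons. With the animal as a block Ciart was also called between hippocampus and cerebellum, and the block changed no other call of the 7 genes. With the animal number series as a block the h5 comparisons still called 0 of the 7 genes, while over all genes the calls went from 0 to 20 in cortex, from 2 to 7 in hippocampus, from 1 to 0 in spinal cord and from 2 to 0 in cerebellum, and stayed at 0 in brain. Left-out mice gave 2 to 4 mutant calls, 24 to 28 tissue calls and 0 calls for the differences between tissues.

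The agreement of brain and cord was weaker for Hlf on log2(TPM + 1) (r = 0.331) and without the farthest or the set-apart pair (0.412), and for Nfil3 on log2(TPM + 1) (0.309), without the farthest pair (0.255), the set-apart pair (0.211), h3 (0.226) or h4 (0.478). It reversed for Bhlhe40 without those pairs (-0.0883 and -0.0807), and passed for Bhlhe41 on log2(TPM + 1) (0.508), without C57BL/6J (0.676) or without h5 (0.721). The set-apart pair was chosen after seeing the data. Groups of 3 or 4 mice limit every mutant comparison, h1 to h4 share 3 controls, and Nfil3 and Ciart rest on the fewest counts.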
